A study of Mus musculus with 168 samples.

Results

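The Sfmbt2 intronic microRNA cluster of the mouse comprised 68 microRNA transcripts, chosen by position: every microRNA that GENCODE vM21 places on chromosome 2 within the Sfmbt2 gene region. All 68 lay on the plus strand between positions 10465287 and 10518279 of GRCm38, a span of 52993 bp. Single members were selected on their mean count over all 168 cortex libraries, which had to reach 5, and 14 members passed; 53 more were detected at a lower mean and 1 was at 0 in every library. Mir669f, with a mean of 5.31 counts, fell just inside this limit and Mir297a-4, with 4.71 counts, just outside. The 14 belonged to 402 microRNA transcripts of the table that met the same limit, out of 1626 transcripts in all.

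MicroRNAs are cut by Drosha and Dicer from hairpins in longer transcripts, and the bases near the 5′ end of the mature strand, called the seed, pair with target messenger RNAs. Sfmbt2 encodes a Polycomb-group protein and is imprinted, with expression from the paternal allele in the placenta. The large block of Mir297, Mir466, Mir467 and Mir669 copies inside its intron arose by tandem duplication in rodents and is best known from embryonic stem cells and trophoblast.

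Small RNA was sequenced from the cortex of C57BL/6 mice at 2, 6 and 10 months (2m, 6m, 10m). The mice were heterozygous for a knock-in Htt allele named for its CAG repeat length (Q20, Q80, Q92, Q111, Q140 or Q175), or were wild-type (WT) mice from Q20 litters. All knock-in mice thus kept 1 endogenous Htt allele, and the Q175 line arose from the Q140 line by spontaneous repeat expansion. Each of the 21 groups of genotype and age held 8 libraries. By their labels 19 groups had 4 females and 4 males, the Q20 group at 10m had 5 females and 3 males and the Q80 group at 2m had 3 females and 5 males, whereas by the sex that most labels of a cage gave, the cages being single-sex, all 21 groups had 4 and 4. The comparisons asked how the cluster varied with CAG length, with genotype, with age and with sex, with Q20 and WT mice as controls.

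Library totals ran from 2041741 to 11646287 estimated counts with a median of 4810487, and no library pair held identical values. The 8 WT libraries at 6m are not listed among the groups in the study's methods and stood apart in the table, so they were left out of the tests and are described separately. Neuronal markers of the cortex were present: all 7 Mir9, Mir124a and Mir128 transcripts were above the count limit. Markers of oligodendrocytes (3 of 3), erythrocytes (3 of 3), endothelium (1 of 1), myeloid cells (2 of 2) and choroid plexus (2 of 2) were detected as well. These counts cover the markers found by name in the count table. The neuronal marker Mir9-1 and the myeloid markers Mir142 and Mir142hg were listed but not found. In bulk cortex, fewer cells of a type and less RNA per cell cannot be told apart.

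The sequence tables matched none of the 68 members, so the repeat character of these families is shown by their copies on other chromosomes. Of 10 such copies in the count table, 8 had a RefSeq mature sequence (GRCm38.p6). The seed, bases 2 to 8, is in capitals.
Mir466i: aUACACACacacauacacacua
Mir467f: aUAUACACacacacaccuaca
Mir466q: gUGCACACacacacauacgu
Mir467g: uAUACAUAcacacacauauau
Mir466k: uGUGUGUGuacauguacauguga
Mir466j: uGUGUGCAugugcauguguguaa
Mir669n: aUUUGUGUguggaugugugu
Mir467h: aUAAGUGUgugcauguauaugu

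The 8 seeds all differed, although 4 of the strands were runs rich in CA and 4 were rich in UG. Each held 5 to 10 UG or CA dinucleotides, against a median of 3 among 1738 mouse mature sequences. At least 6 were present in 7 of the 8 strands and in 7.36% of all mature sequences. Reads from such strands can align to several places.

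Both long Sfmbt2 transcripts carried the whole cluster in 1 intron of 62472 bp, bounded by exons that end at 10461472 and start at 10523945. It is intron 10 of ENSMUST00000041105 and intron 11 of ENSMUST00000116594, and no member overlapped an exon. The shorter Sfmbt2 transcripts end at 10439137 or before, upstream of the first member. The promoter printed here, from 250 bases before to 50 after the gene's start (RefSeq, GRCm38.p6, chr2:10372186-10372485, plus strand), lies at the start of both long transcripts. CG dinucleotides are in capitals.
Sfmbt2 promoter: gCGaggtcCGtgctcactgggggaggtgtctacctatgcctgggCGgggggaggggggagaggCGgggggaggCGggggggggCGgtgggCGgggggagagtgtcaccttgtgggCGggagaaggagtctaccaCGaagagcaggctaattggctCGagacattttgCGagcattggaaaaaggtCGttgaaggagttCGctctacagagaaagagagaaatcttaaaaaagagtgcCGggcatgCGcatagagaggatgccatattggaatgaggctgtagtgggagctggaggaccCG

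This window held 16 CG dinucleotides (5′-CG-3′, which reads the same on both strands) and was 60% G or C. The median of 32851 promoters of the same length was 7, and 10841 of them held at least 16. Sfmbt2 messenger RNA was not analysed here.

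The cluster was a minor part of the cortical microRNAs. Its members summed to 330 estimated counts per library on average, which was 0.00675% of all counts, and the 14 members held 89.1% of that sum. Scaled to CPM (each count relative to the TMM-scaled library total, times 1000000), the cluster sum was 66.6 ± 14.9 CPM (SD, n = 168). Counts were not divided by length, so levels of different members are compared only as counts.

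Mir467 copies carried the largest share. The 5 Mir467 members held 49.7% of the cluster's counts, 17 Mir669 members held 29.9%, 17 Mir466 members held 15.1%, 5 Mir297 members held 3.21%, and 24 members with only a Gm name held 2.10%. Mir467a-1 averaged 76.0 counts, Mir669c 48.4, Mir467d 46.5 and Mir467e 27.5, and these 4 held 60.1% of the sum. The other 10 members above the limit averaged between 5.31 counts (Mir669f) and 17.4 (Mir466d). No Mir297 copy reached the limit, and Gm25943 (6.48 counts) was the one member without a family name that did.

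The abundant members sat at both ends of the block. Of the 14 members, 5 lay in the first 12 kb, from Mir669f to Mir467a-1 (chr2:10476346-10476418). The other 9 lay from 33 kb onwards, from Mir466b-2 (chr2:10498685-10498766) to Mir466g (chr2:10514595-10514674). Between 12 and 33 kb there were 11 members, and the highest of them, Mir467b, averaged 0.584 counts.

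**Figure D1:**
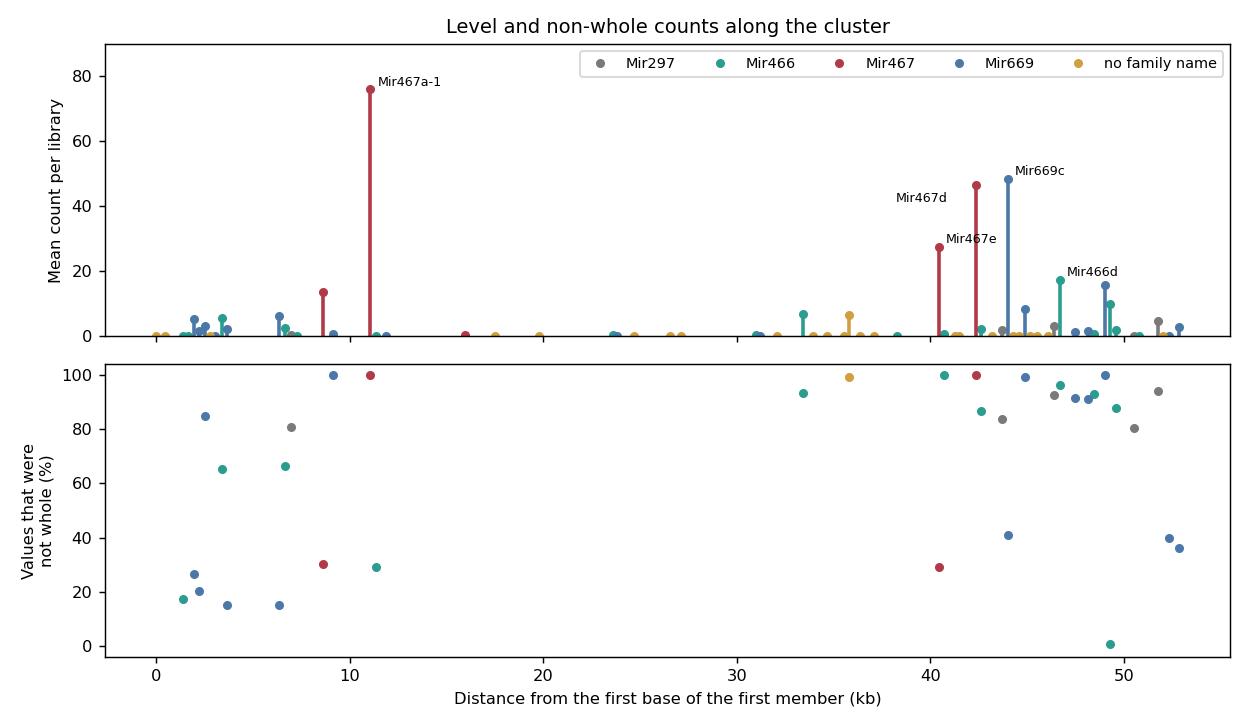
Mean estimated count per library (upper panel) and percentage of values above 0 that were not whole numbers (lower panel, members above 0 in at least 20 libraries) against distance in kb from the first member, coloured by family. The 4 highest members sit at 11.1, 40.4, 42.3 and 44.0 kb, and non-whole shares run from 0.595% for Mir466g to 100%.

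The deposited values are estimated counts. A value that is not whole (further than 0.001 from an integer) is read here as a sign that reads were divided among transcripts. How the values were estimated is not given in the sources used here. Over the 68 members, 3020 of 4525 values above 0 were not whole, or 66.7%. The 14 members gave 1456 of 2292 values, or 63.5%. Among the 388 other microRNAs above the count limit the share was 31.3%, and their median share per microRNA was 0%.

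Single members differed widely in this respect. Every value above 0 of Mir467a-1, Mir467d and Mir669o was non-whole, as were 99.4% of Mir669a-2, 99.4% of Gm25943, 96.4% of Mir466d and 93.5% of Mir466b-2. At the other end, Mir466g had 0.595%, which was 1 value in 168 libraries. Mir669d-2 (15.2%), Mir669f (26.5%), Mir467e (29.2%), Mir467c (30.4%), Mir669c (41.1%) and Mir466f-2 (65.4%) fell between.

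Some divided reads could be traced to pairs. Mir467a-1 and Mir467d were both non-whole in all 168 libraries, and their sum was whole in 107 of them (63.7%). Mir669d-2 and Mir669l were both non-whole in 18 libraries, and in all 18 their sum was whole. Mir466b-5 and Mir466b-7 had equal values in every library, and so did Mir669p-1 and Mir669p-2. These pairs were above 0 in only 16 and 19 libraries. Their sum was whole in 0 of the 15 and 19 libraries with non-whole values, so those reads were not traced to the pair alone. A change in 1 member of such a pair cannot be separated from its partner, and Mir467a-1 and Mir467d are therefore also given as a sum.

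The mean cluster sum was lower at 10m than at 2m in all 7 genotypes. At 2m it ran from 64.6 to 99.6 CPM over 56 libraries with a median of 80.5, and at 10m from 37.2 to 84.8 CPM with a median of 50.6. At 6m the median was 65.7 CPM, and in the 6 knock-in genotypes the 6m mean lay between the means at 2m and 10m. The ages overlapped, since 9 of the 56 libraries at 10m exceeded the lowest library at 2m. Mean levels at 10m were 0.6004 to 0.6468 of those at 2m in WT, Q20, Q80, Q92, Q111 and Q140 mice and 0.889 in Q175 mice.

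Every one of the 14 members was lower at 10m. All 14 passed an adjusted p of 0.05 (edgeR quasi-likelihood test with genotype and sex in the model) and all 14 fell, whereas 72.9% of the 402 microRNAs passed in either direction and 40.8% passed as lower. The median log2 change of the members was -0.63, and that of all microRNAs tested was -0.02. Member values ran from -1.40 (Mir669a-2) to -0.43 (Gm25943). Mir669a-2 was at 7.77 CPM or more in 10 of 56 libraries at 2m and 2 of 56 at 10m. Its other libraries had medians of 0.903 and 0.700 CPM. In Q175 mice alone, the 10m mean was above the 2m mean in Mir467e (1.16 times), Mir466g (1.13), Mir466b-2 (1.09), Mir466d (1.02) and Gm25943 (1.01). In other genotypes this occurred only in Mir669a-2 and Mir466b-2, with highest ratios of 1.73 and 1.22.

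Within the Mir467 family, Mir467a-1 ran from 12.5 to 23.9 CPM at 2m (median 18.8) and from 7.10 to 21.6 CPM at 10m (median 12.1). Its log2 change was -0.62 ± 0.05 (SE, adjusted p = 4.60e-22). The ages overlapped, and 25 of 56 libraries at 10m exceeded the lowest at 2m.

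Mir467d had a median of 10.8 CPM at 2m (6.59 to 16.5) and 6.65 CPM at 10m (3.55 to 12.9). It fell by 0.64 ± 0.06 on the log2 scale (SE, adjusted p = 2.33e-18). Mir467c went from a median of 3.18 CPM (1.55 to 4.79) to 2.08 CPM (0.796 to 3.95), a log2 change of -0.66 ± 0.08 (SE, adjusted p = 4.33e-13). The ages overlapped in both members, with 29 (Mir467d) and 40 (Mir467c) libraries at 10m above the lowest at 2m.

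Mir467e changed less, from a median of 6.39 CPM (3.58 to 9.87) to 4.46 CPM (2.52 to 12.98). Its log2 change was -0.49 ± 0.07 (SE, adjusted p = 6.36e-10). The highest library of this member at either age was a Q175 library at 10m.

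Among the Mir669 copies, Mir669c had a median of 11.4 CPM at 2m (7.98 to 15.8) and 6.72 CPM at 10m (4.17 to 13.99). Its log2 change was -0.67 ± 0.06 (SE, adjusted p = 1.22e-19), and 16 libraries at 10m exceeded the lowest at 2m. Mir669d-2 had a median of 1.54 CPM (0.771 to 2.64) at 2m and 1.01 CPM (0 to 2.22) at 10m, a log2 change of -0.74 ± 0.11 (SE, adjusted p = 3.99e-09). The ages overlapped in this member too, with 37 libraries at 10m above the lowest at 2m.

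Mir669o fell by 0.53 ± 0.14 on the log2 scale (SE, adjusted p = 0.000239), with medians of 4.20 CPM at 2m (1.30 to 6.92) and 2.66 CPM at 10m (0 to 7.11). The Mir466 copies followed: Mir466d had a median of 4.11 CPM (2.68 to 7.50) at 2m and 2.99 CPM (0.264 to 5.92) at 10m, with a log2 change of -0.55 ± 0.09 (SE, adjusted p = 4.68e-08). Mir466g had a median of 2.21 CPM (0.193 to 4.88) at 2m and 1.63 CPM (0.216 to 3.18) at 10m, with a log2 change of -0.58 ± 0.11 (SE, adjusted p = 2.03e-06). The whole range of Mir466g at 10m fell inside its range at 2m.

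The library names carry codes from L1 to L8, read here as lanes, and those of the 2 ages barely overlap, since L7 alone occurs at both, in 4 libraries at 2m and 25 at 10m. With the lane code in the model, an alternative chosen after seeing the data, 6 of the 14 members passed, Mir467a-1, Mir467c, Mir467d, Mir467e, Mir669c and Mir466g, as did 153 of the 402 microRNAs. All 14 estimates stayed below 0, with a median of -0.64. Library names of both ages repeat the same codes after L7, so L7 need not be the same lane at both. Age and sequencing run therefore cannot be told apart, and the fit with the lane code cannot separate them.

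Marker microRNAs moved with age too, in a test that 72.9% of all 402 microRNAs passed, 40.8% of them all as lower. Higher at 10m were 2 of 3 oligodendrocyte markers, with summed levels of 2855 to 4382 CPM at 2m and 2842 to 5429 CPM at 10m. Neuronal markers had 3 of 7 higher and 2 of 7 lower, with sums of 80795 to 107504 CPM at 2m and 84131 to 110385 CPM at 10m. Of the other lists, erythrocytes had 2 of 3 higher and 1 lower (2596 to 4333 CPM at 2m, 1925 to 3298 CPM at 10m), myeloid cells 1 of 2 lower (167 to 357 and 164 to 340 CPM), choroid plexus 1 of 2 in each direction (2403 to 5489 and 2447 to 11035 CPM) and endothelium 0 of 1 (7303 to 10014 and 7035 to 10495 CPM). No marker found in the count table was at 0 in all libraries, and the part of the markers in the result was not tested.

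**Figure D2:**
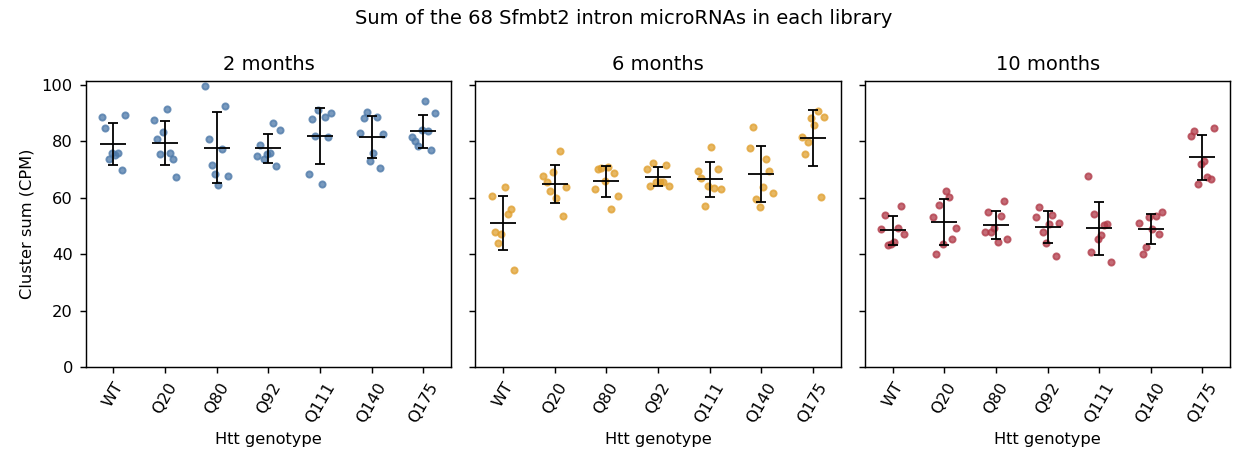
Cluster sum in CPM for each library by Htt genotype, with 1 panel per age; bars are the mean and SD of 8 libraries. The group means at 10m lie between 48.5 and 51.4 CPM except for Q175 at 74.3 CPM, and the 6m WT group is low at 51.0 CPM.

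Q175 cortex held more of the cluster than the other genotypes at 10m. The Q175 libraries ran from 64.8 to 84.8 CPM with a median of 72.5, and the 48 other libraries at 10m had a median of 49.2 and a highest value of 67.6 CPM. A single library, of a Q111 mouse, exceeded the lowest Q175 library, and none of the 16 Q20 and WT libraries (39.98 to 62.41 CPM) did. Group means of the other 6 genotypes lay between 48.5 and 51.4 CPM. The ratio of the Q175 mean to the mean of the others was 1.496. By the cage codes, all Q175 females of this age shared a cage, and so did all Q175 males. No sequenced library of another genotype came from these cages, so genotype and cage cannot be told apart.

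Each family sum was also higher on average in Q175 mice, as a description with no test. Relative to the mean of the other 10m libraries, Q175 levels were 1.55 times for Mir467 members, 1.49 times for Mir669 members, 1.34 times for Mir466 members and 1.57 times for Mir297 members. The 54 members below the count limit summed to 8.09 ± 1.07 CPM (SD, n = 8) in Q175 mice and to group means of 5.66 to 6.66 CPM in the other genotypes. Shares of the sum were close: Mir467 members made up 51.1% ± 2.7 (SD, n = 8) in Q175 mice and 49.5% ± 4.1 (SD, n = 48) in the others.

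Tested against CAG length at 10m (edgeR, sex in the model, WT set at 7 repeats), 4 of 14 members rose and none fell. Among all 402 microRNAs 8.46% passed, and 4.73% passed as higher. The median log2 change per 100 repeats was 0.25 over the members and -0.01 over all microRNAs tested, and 12 of the 14 members had a positive coefficient against 47.3% of all. The test for any difference between genotypes at 10m called 4 members as well, Mir669c, Mir467e, Mir467a-1 and Mir467d, where 7.71% of all microRNAs passed.

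Mir467e ran from 5.04 to 12.98 CPM (median 6.32) in Q175 mice, and the 16 control libraries from 2.52 to 5.83 CPM (median 3.76). It rose by 0.43 ± 0.10 per 100 repeats (log2, SE, adjusted p = 0.00232). Both groups overlapped slightly, with 2 of the 16 control libraries above the lowest Q175 library, and 2 Q175 libraries stood well above the rest of their group.

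Mir466g ran from 1.46 to 3.18 CPM (median 2.37) in Q175 mice and from 0.291 to 2.86 CPM (median 1.11) in controls. Its log2 change per 100 repeats was 0.52 ± 0.14 (SE, adjusted p = 0.010). This was the member with almost no non-whole values, and 5 of 16 control libraries exceeded the lowest Q175 library.

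Mir669c ran from 9.81 to 13.99 CPM (median 11.1) in Q175 mice and from 4.62 to 11.4 CPM (median 6.37) in controls. Its log2 change per 100 repeats was 0.32 ± 0.09 (SE, adjusted p = 0.0116). Only 1 control library overlapped the Q175 range, and over all 48 other libraries 2 did.

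Mir467a-1 ran from 13.8 to 21.6 CPM (median 18.0) in Q175 mice and from 8.44 to 15.9 CPM (median 12.2) in controls, with a log2 change per 100 repeats of 0.25 ± 0.07 (SE, adjusted p = 0.0224). Its read-sharing partner Mir467d ran from 8.23 to 12.9 CPM (median 9.77) against 3.89 to 10.7 CPM (median 7.40), with 0.15 ± 0.09 (SE, adjusted p = 0.366). Summed, the pair averaged 27.9 ± 3.8 CPM (SD, n = 8) in Q175 mice and 17.3 to 19.1 CPM in the other genotypes. No control library reached the lowest Q175 value of the pair sum, 23.7 CPM.

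The remaining members did not pass in this test. Mir466d was at 3.06 to 5.92 CPM (median 3.57) in Q175 mice and 0.264 to 5.06 CPM (median 2.45) in controls (0.35 ± 0.14, adjusted p = 0.112), and Mir467c was at 1.48 to 3.76 CPM (median 2.73) against 0.796 to 3.95 CPM (median 1.85; 0.17 ± 0.12, adjusted p = 0.459). Both members overlapped widely between the groups. Coefficients of the other 7 ran from -0.33 ± 0.29 (SE, Mir669a-2) to 0.65 ± 0.43 (SE, Mir466b-2). In Mir466b-2 the 95% interval ran from -0.20 to 1.51, which includes the value of Mir467e.

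**Figure D3:**
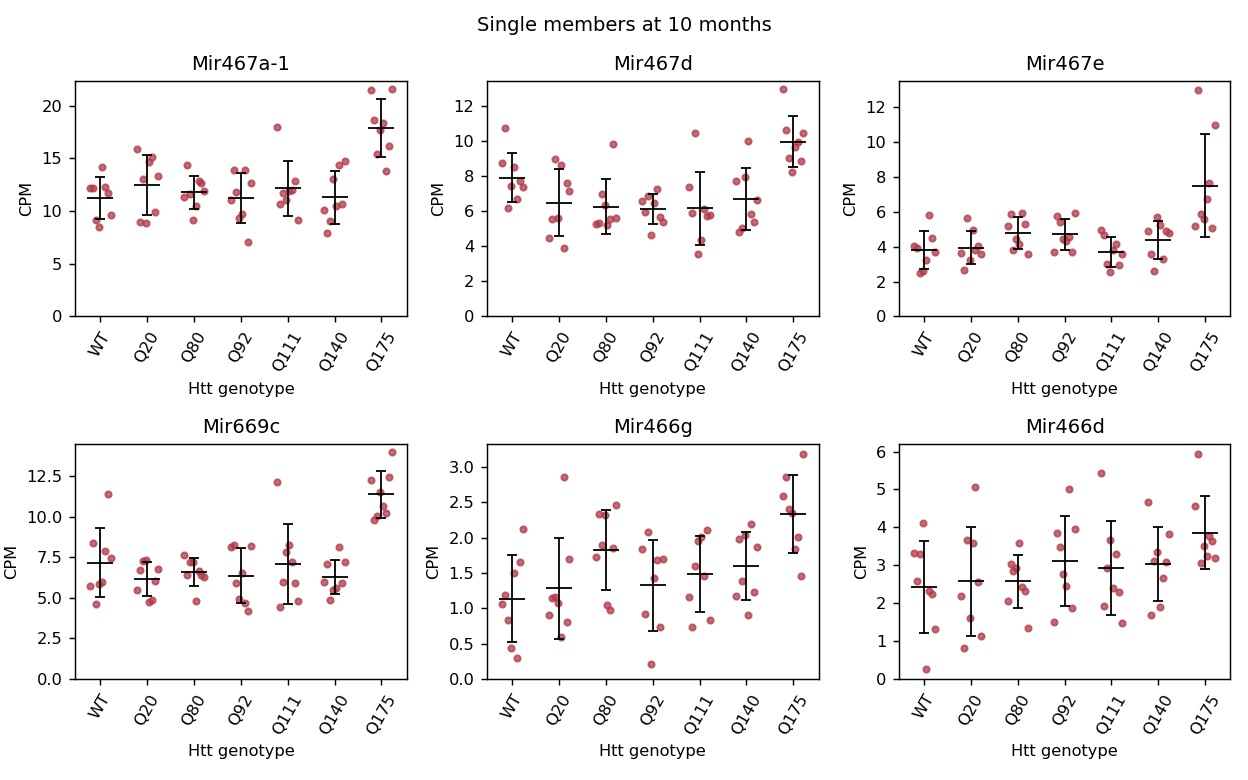
CPM of 6 members in each library at 10m by Htt genotype, with bars for the mean and SD of 8 libraries and separate vertical scales from 0. Among these 6 the fewest other libraries lie above the lowest Q175 library in Mir669c, 2 of 48, and the most in Mir466g, 23 of 48.

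The association with CAG length rested on the Q175 mice. Without them, a fit chosen after seeing the data, 0 of the 14 members and 1 of the 402 microRNAs passed in edgeR, and 1 member (Gm25943, falling) had an unadjusted p under 0.05. Mir467a-1 then had a coefficient of -0.01 with a 95% interval from -0.18 to 0.16, Mir669c -0.03 (-0.23 to 0.17), Mir467e 0.13 (-0.09 to 0.35) and Mir466g 0.36 (-0.01 to 0.72) per 100 repeats. From WT to Q140 no ordering by repeat length was resolved in the cluster sum, whose means differed by less than the SD of each group (4.998 to 9.268 CPM).

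A direct comparison of Q175 mice with the Q20 and WT controls at 10m, also added after seeing the data, called 5 members, all higher, where 11.7% of all microRNAs passed and 5.72% passed as higher. Mir466g was 1.98-fold higher (log2 0.99 ± 0.24, adjusted p = 0.00719), Mir467e 1.90-fold (0.92 ± 0.17, adjusted p = 0.000432), Mir669c 1.69-fold (0.76 ± 0.13, adjusted p = 0.000197), Mir467a-1 1.51-fold (0.60 ± 0.12, adjusted p = 0.000878) and Mir467d 1.36-fold (0.44 ± 0.13, adjusted p = 0.0323). The median log2 difference was 0.54 over the members and -0.01 over all microRNAs tested. The 10m libraries of Q175 mice were spread over the 3 lane codes of that age, 3, 4 and 1 in each, and with the lane code in the model the same number of members passed in the CAG test and in this comparison.

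Several marker microRNAs differed between Q175 mice and controls at 10m. Over all 402 microRNAs 47 passed in this comparison (11.7%), 24 of them as lower. Lower in Q175 were 3 of 7 neuronal markers: Mir128-2 (log2 -0.21 ± 0.04, adjusted p = 0.00135), Mir128-1 (-0.16 ± 0.05, adjusted p = 0.0263) and Mir124a-3 (-0.43 ± 0.14, adjusted p = 0.0396). Their list summed to 84131 to 95189 CPM in Q175 mice and 88323 to 110385 CPM in the others. Of 2 choroid plexus markers 1 was lower, Mir204 (-0.72 ± 0.22, adjusted p = 0.0335; list sums of 2462 to 2996 and 2447 to 11035 CPM).

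None of the 3 oligodendrocyte (4488 to 5061 CPM in Q175 mice, 2842 to 5429 CPM in the others), 3 erythrocyte (2047 to 2628 and 1925 to 3298 CPM), 2 myeloid (174 to 224 and 164 to 340 CPM) or 1 endothelial marker (8604 to 9835 and 7035 to 10495 CPM) passed. No marker found in the count table was at 0 in all libraries. The part of these shifts in the cluster result was not tested.

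At 6m the cluster sum of Q175 mice ran from 60.2 to 90.6 CPM with a median of 83.6, and that of the 40 libraries from Q20 to Q140 reached 85.0 CPM with a median of 65.7. The groups overlapped widely, as 34 of the 40 lay above the lowest Q175 library. Means of the other groups were 64.9 to 68.5 CPM, and the Q175 mean was 81.2 ± 9.9 CPM (SD, n = 8).

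In the CAG test at 6m (sex and library code in the model), 1 of 14 members rose, with 6.72% of all microRNAs called and 5.22% called as higher. That member was Mir669c, with 9.42 to 16.8 CPM (median 15.2) in Q175 mice and 8.38 to 12.4 CPM (median 11.2) in Q20 mice, and its log2 change per 100 repeats was 0.28 ± 0.08 (SE, adjusted p = 0.0266). Q175 and Q20 libraries of this age shared no lane code, so genotype and lane cannot be told apart between them. Mir467a-1, at 0.20 ± 0.07 (adjusted p = 0.0696), did not pass. The median coefficient was 0.18 over the members and 0.00 over all microRNAs tested.

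The test for any genotype at 6m likewise called Mir669c alone (adjusted p = 0.0295), where 7.46% of all microRNAs passed. With the lane code in place of the library code, chosen after seeing the data, 0 members passed in the CAG test (Mir669c at 0.38) and 3 in the test for any genotype, Mir669c, Mir467c and Mir669a-2. Without the Q175 library of 11646287 counts, the deepest in the series, Mir669c did not pass in either test and its coefficient was 0.26.

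WT libraries at 6m had less of the cluster than the other genotypes of that age, with a sum of 34.6 to 63.7 CPM (median 51.1). Mir669c was at 3.24 to 8.69 CPM (median 4.65) there, below the median of every knock-in group at 6m. When these libraries were added to the CAG test, 4 members and 224 of the 402 microRNAs passed. Their library names have another form than those of all knock-in libraries at 6m, so genotype and library set cannot be told apart.

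At 2m no difference between genotypes passed the test in the cluster. The group means of the sum lay between 77.5 and 83.6 CPM, and 25 of the 48 other libraries lay above the lowest Q175 library. In edgeR 0 of 14 members passed in the CAG test, with 0% of all microRNAs called, and 1 member had an unadjusted p under 0.05 (Mir466d, lower). DESeq2 called 0 members too.

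The test for any genotype at 2m called 0 members in edgeR, again with 0% of all called, and 0 had an unadjusted p under 0.05; in DESeq2 these counts were 0 and 1, with 3 of the 402 microRNAs called. For Mir467a-1 the 95% interval of the CAG coefficient at 2m was -0.07 to 0.11 per 100 repeats. For Mir669c it was -0.09 to 0.13.

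**Figure D4:**
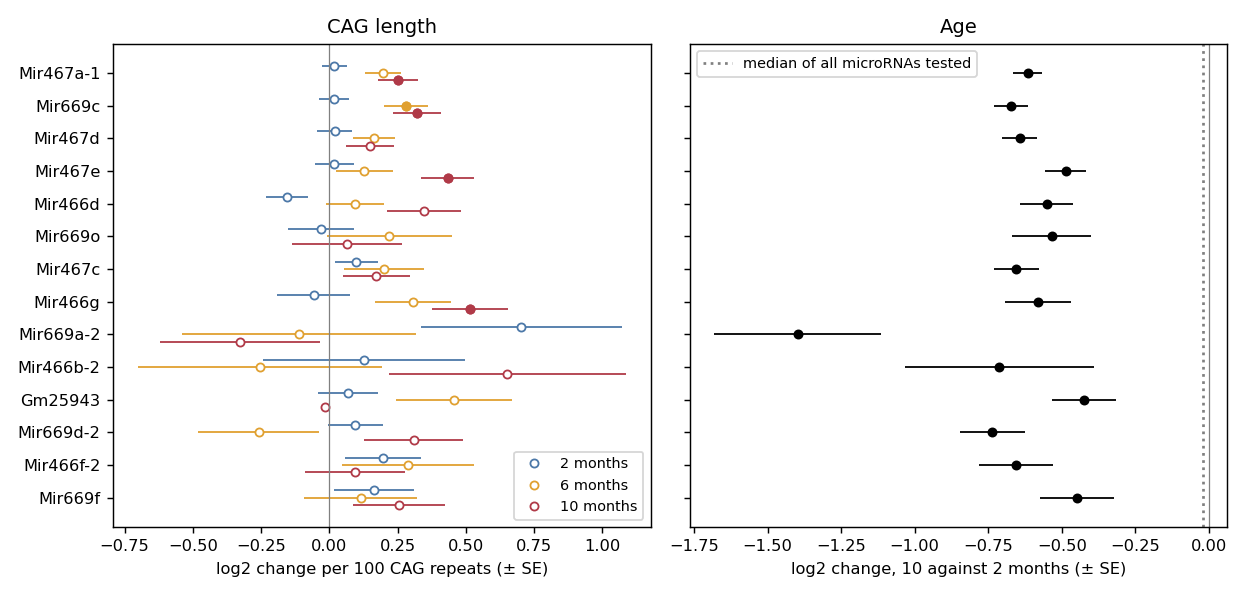
Left, log2 change per 100 CAG repeats with SE at 2m, 6m and 10m for the 14 members, filled where the edgeR adjusted p was under 0.05; right, log2 change from 2m to 10m with SE. The filled points are Mir467a-1, Mir669c, Mir467e and Mir466g at 10m and Mir669c at 6m, and all 14 age changes lie between -1.40 and -0.43.

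The change of the CAG coefficient between 2m and 10m was tested as an interaction, chosen after seeing the data. Mir467e passed, with a difference of 0.41 ± 0.12 per 100 repeats (log2, SE, adjusted p = 0.0475), where 1.49% of all microRNAs passed. Next came Mir466d with 0.50 ± 0.15 (adjusted p = 0.0578), Mir466g with 0.57 ± 0.19 (adjusted p = 0.106) and Mir669c with 0.30 ± 0.11 (adjusted p = 0.106). The call of Mir467e was lost under 4 alternatives, 1 of them without the Q175 mice.

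No difference between the sexes passed the test. Over the 2m and 10m libraries, 0 of 14 members passed in edgeR, where 0.746% of all microRNAs did, and 3 had an unadjusted p under 0.05; DESeq2 gave the same counts. Males had the lower estimate in 12 of 14 members, some of them near 0 (Mir467a-1 at -0.001). The median log2 difference was -0.09 against -0.00 over all. With the sexes of the labels 10 members had the lower estimate in males, and with a replicate block 9 did. Mir467c came nearest, at 3.43 ± 0.74 CPM in 28 females and 2.90 ± 0.66 CPM in 28 males at 2m, and 2.25 ± 0.78 and 1.85 ± 0.73 CPM at 10m (log2 -0.26 ± 0.08, adjusted p = 0.0950). The cluster sum averaged 83.4 ± 8.1 CPM in females and 76.9 ± 7.0 CPM in males at 2m, and 53.8 ± 11.2 and 52.5 ± 10.7 CPM at 10m (SD, n = 28).

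Copies of the families outside the intron were rarer. Of the 10, only Mir466q (chr3:28419943-28420018, mean 6.49 counts) reached the count limit, and the other 9 averaged at most 0.238 counts. Non-whole values made up 83.8% of the Mir466q values above 0. Mir466q had medians of 1.37 CPM at 2m (0.370 to 2.35) and 1.41 CPM at 10m (0.318 to 3.24), and 55 of 56 libraries at 10m lay above the lowest at 2m. Its log2 change with age was 0.04 ± 0.11 (SE, adjusted p = 0.768) and its CAG coefficient at 10m was -0.15 ± 0.16 (SE, adjusted p = 0.650).

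Within groups, the 14 members varied together only weakly. The correlation of their deviations from group means (log2 of CPM + 1, 168 libraries) had a median of 0.07 over 91 pairs, from -0.36 to 0.31, against a median of 0.00 over all pairs of microRNAs tested. All pairs share library depth, and some share reads. Member means went down to 5.31 counts (Mir669f), and the part of sampling noise at such low counts was not tested.

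Outside the families, the 5 microRNAs most like the cluster sum over the 168 libraries (Pearson r of log2 values, 387 compared) were Mir3547 (r = 0.70), Mir130a (r = 0.70), Mir3099 (r = 0.67), Mir298 (r = 0.67) and Mir187 (r = 0.67). All 5 were lower at 10m than at 2m, with log2 changes from -1.86 (Mir3547) to -0.25 (Mir130a). Within 10m r was 0.12 to 0.21 for 4 of the 5 and 0.60 for Mir130a. None of them passed in the CAG test at 10m, where Mir130a had 0.06 ± 0.03 (adjusted p = 0.347).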

How the data were processed

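Total RNA of cortex was extracted with miRNeasy kits and small RNA was sequenced (base calls with CASAVA 1.8.2, per the submitters' processing notes). The authors aligned clipped reads to mm10 with STAR and deposited a table of estimated counts per Ensembl transcript, many not whole numbers. The study's methods name HTSeq for read counts per gene, which counts whole reads, so how these transcript values were estimated is not given in the sources used here. A deposited table in FPKM was not used. How reads were divided among repeat copies can move counts between members.

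Transcripts were named and placed by GENCODE vM21. The members and lists were chosen with earlier results of these data known. Estimated counts were rounded, microRNAs with a mean of at least 5 counts kept (402), and tested with edgeR 4.0.16 quasi-likelihood (TMM scaling, R 4.3.3, two-sided, Benjamini-Hochberg over all 402, threshold 0.05). CAG length was fitted within each age with sex as a covariate (WT at 7 repeats, per 100 repeats), plus library code at 6 months, where 11 libraries carried another code than the rest. Genotype was fitted as a factor likewise, and age and sex over 2 and 10 months. Cages were single-sex, so sex was taken as that of most labels of the cage coded in the library name, or as the library's own label where no cage was coded; the 2 differed for 2 libraries. CPM is the unrounded count over the TMM-scaled library total, times 1000000, and log2 correlations used CPM + 1. The alternatives were DESeq2 1.42.0, other scalings, filters and covariates. In simulated counts for CAG length at 10 months over 402 microRNAs, 64% of changes of 0.2 and 85% of 0.4 (log2 per 100 repeats) were recovered. For age, 70% of changes of 0.3 and 96% of 0.6 were recovered. Unchanged microRNAs were called in 3.465% for CAG length and 0.990% for age. The changed microRNAs were drawn from all 402, so these shares do not give the recovery for the cluster members.

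Named in full were the 6 members with the highest mean and those past the threshold in a comparison, at most the 6 with the smallest p; others named beside them were picked after their values were seen. Likeness named the 5 microRNAs with the highest Pearson r to the cluster sum. Labels name separate mice as replicates.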

Additional observations from a re-analysis of the deposited data

Results flagged for a closer look

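In 8 of 210 groups of 8 libraries checked, 1 library lay far from the others of its group; chance gives about 1 in 20 groups. Among Mir467 members, Mir467a-1 reached 18.0 CPM in 1 Q111 library at 10m (next 12.8 CPM), the library whose cluster sum overlapped the Q175 range. Mir467d reached 13.7 CPM in 1 Q92 library at 6m (next 10.7 CPM) and 9.83 CPM in 1 Q80 library at 10m (next 6.98 CPM). Mir467c reached 3.39 CPM in 1 Q111 library at 10m (next 1.99 CPM).

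Among Mir669 members, Mir669o was at 1.30 CPM in 1 WT library at 2m (next 4.22 CPM) and at 4.21 CPM in 1 WT library at 6m (next 2.50 CPM). Mir669d-2 reached 2.64 CPM in 1 Q175 library at 2m (next 1.67 CPM) and 1.99 CPM in 1 WT library at 2m (next 1.33 CPM).

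The CAG coefficient of Mir467e differed between 2m and 10m, by 0.41 ± 0.12 per 100 repeats (log2, SE, edgeR interaction test).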

How the results depend on the processing

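Library totals of 2041741 to 11646287 counts left members under a mean of 5 counts untested, and lane codes barely overlap between 2m and 10m. Age and sequencing run cannot be told apart. Excluding Q175 mice, excluding extreme libraries and the lane code at 6m and between ages were chosen after seeing the data. Without Q175 mice 0 members passed with CAG length or any genotype at 6m or 10m, or in the test of CAG length by age, and the CAG coefficients of Mir467a-1 (-0.0141) and Mir669c (-0.0297) at 10m changed sign. At 6m, where 1 member passed in both tests, 4 passed with the WT libraries included, 0 with LB-coded libraries alone and 0 without the Q175 library of 11646287 counts. For any genotype at 6m, 0 passed over all microRNAs with at least 1 count and 0 over all transcripts with a mean of 5 or more. With the lane code, 0 passed with CAG length and 3 with any genotype at 6m, and 6 of 14 with age. The CAG by age call (1 member) became 0 with library size alone, microRNAs with at least 1 count and all transcripts, and 2 with DESeq2, unrounded counts, the lane code or without extreme libraries. The causes were not tested. The share of non-whole values was 65.0% over values of 1 or more. All other counts of members called stayed within 1.5 times.

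Over all 402 microRNAs, calls with CAG length at 6m went from 27 to 224 with WT, 14 with LB libraries alone, 2 without Q175, 15 without the deep library and 1 with lane, and at 10m from 34 to 1 without Q175. Calls for any genotype at 6m went from 30 to 52 with DESeq2, 48 with the block, 273 with WT, 8 with LB libraries alone, 10 with lane and 8 without Q175; over all microRNAs with at least 1 count they were 14, and over all transcripts 16. At 10m they went from 31 to 51 with DESeq2 and 0 without Q175. With age they went from 293 to 153 with lane, and for CAG by age from 6 to 11 with lane and 0 without Q175.

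With a replicate block, 0, 1 and 4 members passed at 2m, 6m and 10m with CAG length and with any genotype, 14 with age, 0 with sex, 1 with CAG by age, and 4 instead of 5 in Q175 against controls, where Mir467d did not pass (log2 0.46). The numbers name samples only: 9 of 56, 6 of 48 and 7 of 56 libraries correlated best with their own number.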

Other observations

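Mir669a-2, with 99.4% of its values non-whole, split the libraries into a low and a high set. In 16 of 168 libraries it was at 7.77 to 13.7 CPM, and in the others at 1.64 CPM or less (median 0.745 CPM). The 16 comprised 10 libraries at 2m, of which 8 were from females, 4 at 6m and 2 at 10m.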
